A study of Mus musculus with 10 samples.

Results

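Popliteal lymph nodes of mice that received an arthritis-inducing adjuvant and acupuncture were compared with nodes of saline-injected mice, across all genes of the deposited table. The comparison uses the 3 libraries labelled Acu (numbered 4, 6 and 28) and the 3 labelled Control (15, 16 and 17), 6 of the 10 libraries of the series. All animals were described as male BALB/c mice of 6 to 8 weeks, and nodes were labelled day 15. Control mice had saline injected under the skin of the right hind paw. Acu mice had 0.1 ml of complete Freund's adjuvant, killed mycobacteria in oil, injected there instead and were also given acupuncture, which the series title places at the point ST36 below the knee. The remaining group, AIA (4 libraries, 5, 10, 31 and 38), had the adjuvant without acupuncture, so adjuvant and acupuncture cannot be told apart in a comparison of Acu with Control. A sham acupuncture group named in the protocol was not analysed here. No label ties a library to its own animal, and p-values therefore cover the spread among libraries only, which may be technical. The series title asks about immune cell proliferation, polarization and sympathetic activity.

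A lymph node that drains an injected site filters antigen and swells as its lymphocytes divide. B cells that meet antigen with T cell help switch from IgM to IgG and become plasma cells, which fill with endoplasmic reticulum and secrete antibody. Popliteal nodes lie in a fat pad behind the knee, between muscles, and a resting node is small, so fat, muscle, nerve and vessel RNA can enter a dissected sample.

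Reads recovered from the deposited values numbered 13269763 to 18926894 per library. Prl8a2, a prolactin of the pregnant uterus, was at most 1.36 FPKM in 8 libraries, but 10739 FPKM in that labelled Control 17 and 3901 FPKM in that labelled Acu 4. FPKM are fragments per kilobase of gene, scaled to sequencing depth. The mean log2(FPKM + 1) of 13 decidual and uterine genes was 7.15 and 5.86 in these 2 libraries and 0.93 to 1.62 in the others. Trophoblast genes averaged 1.90 and 6.54 there. Xist, made from an inactive X chromosome, was 60.1 to 87.2 FPKM in the pair and at most 0.128 FPKM elsewhere, and 4 Y-linked genes were at most 0.0313 FPKM in the pair and at least 0.931 FPKM elsewhere. Both libraries thus go against their labels as nodes of male mice. Their defining lymphocyte genes were low, with B cell genes at a mean of 0.35 and 0.49. Control 15 also lacked most lymphocyte signal, with B cell genes at 0.77 and T cell genes at 0.59. Control 16 stood at 5.79 and 4.42, and Acu 6 and 28 at 6.02 and 6.25 for B cells and 4.79 and 4.84 for T cells. Results are given with all libraries, and again without the 2 libraries with Prl8a2 of 100 FPKM or more, which leaves 2 libraries a group.

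**Figure D1:**
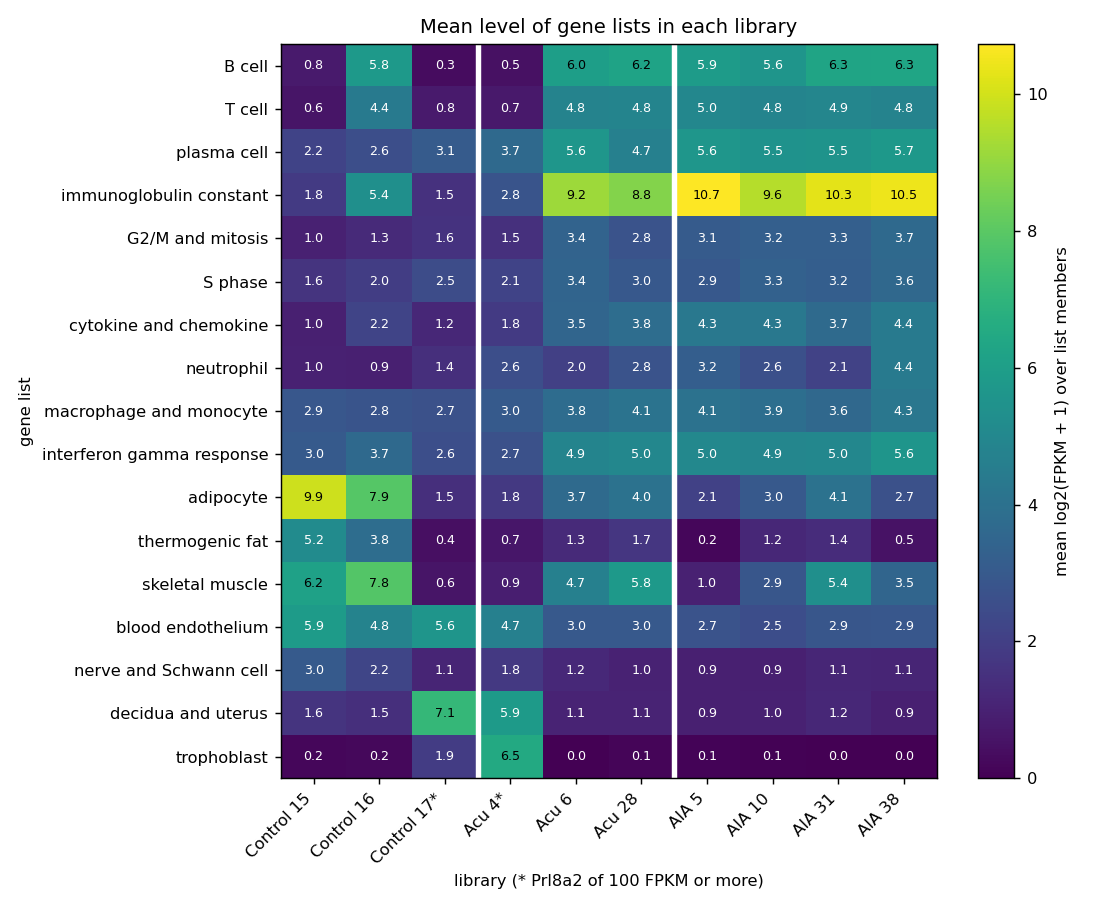
Mean log2(FPKM + 1) of 17 gene lists (rows) in the 10 libraries (columns, by group; an asterisk marks Prl8a2 of 100 FPKM or more). B cell genes are near 0.8 in Control 15 and 5.8 in Control 16, and adipocyte genes are highest in these 2 libraries, at 9.9 and 7.9.

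With all 10 libraries in 1 fit, 0 of 17010 genes tested were called in Acu against Control (0% higher and 0% lower). A gene was called where the limma adjusted p was under 0.05. At an unadjusted p under 0.05 there were 1275 genes, and limma's voom fit on the recovered reads also called 0, with 1144 genes at that unadjusted threshold. Without the library labelled Control 17 the fit called 303 genes, 23 higher and 280 lower, and without the library labelled Acu 4 it called 85, 35 higher and 50 lower. Without both libraries 698 of 16067 genes were called. Of these 141 were higher in Acu (0.878% of genes tested) and 557 lower (3.47%). The voom fit called 345, 54 higher and 291 lower. With only the 2 groups compared, and so without the AIA libraries in the estimate of spread, 13 genes were called, 11 higher and 2 lower, and 7 of these were among the 698. The larger number of lower calls thus turned round in that fit. In the fit with 698 calls Acu 6 and 28 are set against Control 15 and 16, with the 4 AIA libraries sharing the estimate of spread. With FPKM rescaled to the recovered reads of each library, 278 were higher and 486 lower, and the median log2 fold change of all genes moved from 0.06 to 0.33. Fold changes below come from the fit with 698 calls unless another is named, relative to its median of 0.06, and are on the log2(FPKM + 1) scale, which understates the change of low genes. The median of all genes was 0.02 with all libraries and 0.05 without Control 15. SE is limma's moderated standard error.

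Each of Control 15, Acu 6 and Acu 28 decided these calls, since leaving out any 1 of them left 0 genes called. Without Control 15, 1923 genes had an unadjusted p under 0.05 and the smallest limma adjusted p was 0.0578. Without Control 16 the count was 2039, without AIA 10 it was 2096, and without AIA 5, 31 and 38 it was 265, 326 and 308. Without Control 15, of the 141 genes called higher 140 were still tested, and all 140 kept their direction. Of the 557 called lower 506 were still tested, and all 506 kept theirs. The refit reuses the other libraries that chose these genes, so this agreement was largely set in advance and lends the calls no support. The median log2 fold change of the higher genes went from 2.39 to 2.21, and that of the lower genes from -2.64 to -2.03. In this fit Control 16 stands alone and is assumed to vary like the other groups. Every call described below is therefore lost at the adjusted threshold without Control 15, and its value there is given where it moved by over 1.5 times, as for Mzb1, Ccl19-ps3 and Lum.

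**Figure D2:**
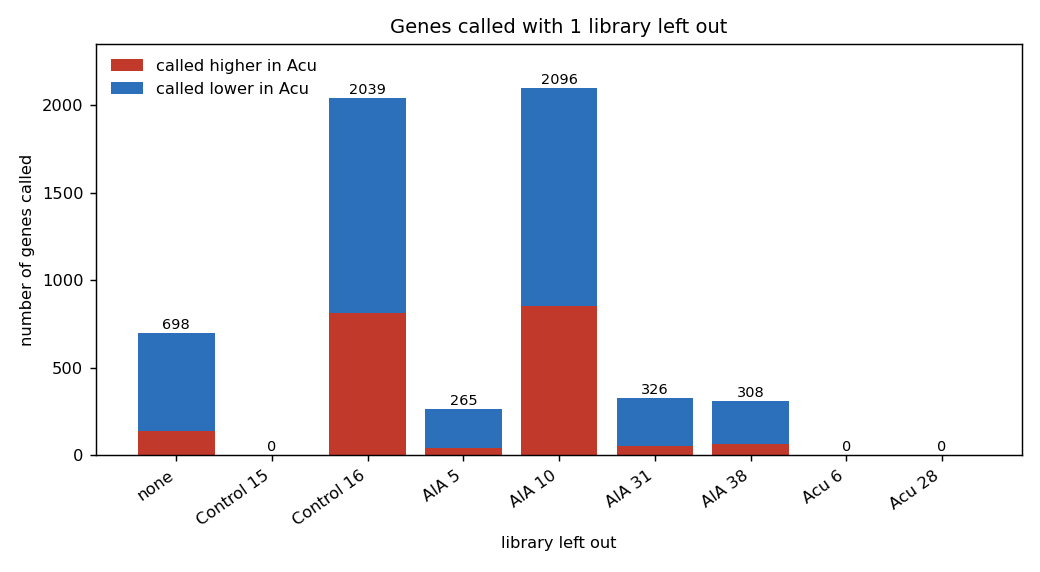
Number of genes called in Acu against Control without the libraries with high Prl8a2 (bars, red higher and blue lower in Acu), with none or 1 further library left out. The count is 698 with none left out, 0 without Control 15, Acu 6 or Acu 28, and 2096 without AIA 10.

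**Figure D3:**
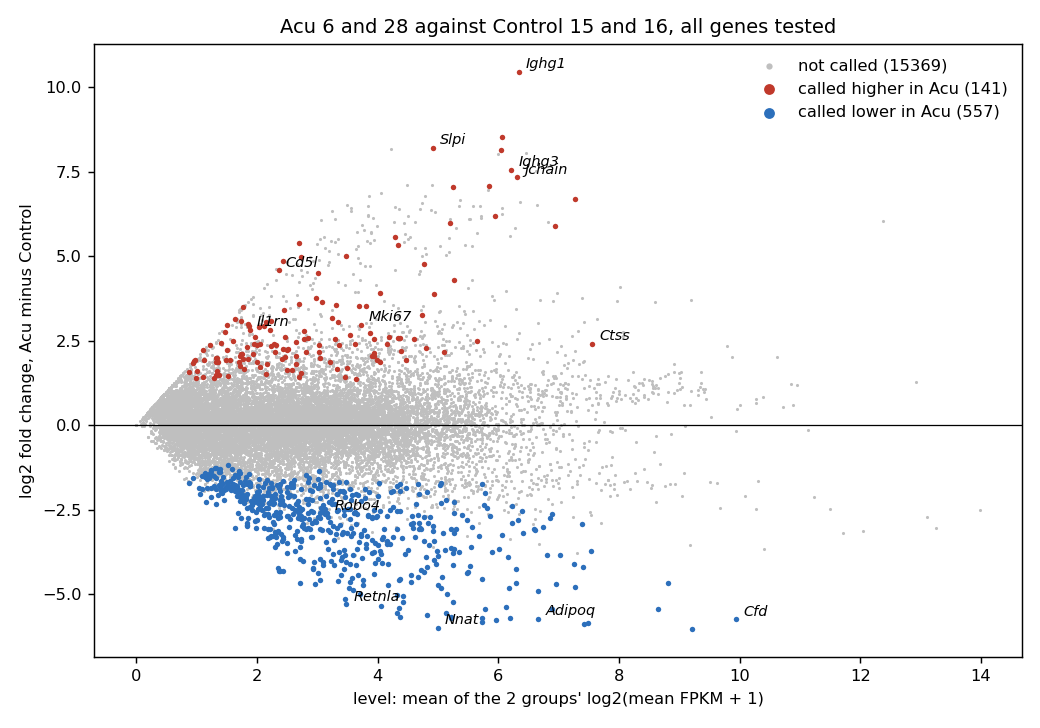
Log2 fold change, Acu minus Control, against the mean level of the 2 groups on the log2(FPKM + 1) scale for the 16067 genes tested without the libraries with high Prl8a2. Red marks the 141 genes called higher and blue the 557 called lower; Ighg1 lies highest at 10.46, and Nnat and Cfd lie among the lowest at -6.01 and -5.75.

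Genes of IgG and of antibody-secreting cells were among the largest rises. Ighg1, the constant region of IgG1, was 0.540 FPKM in Control 15 and 1.82 FPKM in Control 16, against 3603 FPKM in Acu 6 and 2400 FPKM in Acu 28. Both Acu libraries thus lay far above both saline libraries. Over all 16067 genes tested, 61.0% showed no overlap between 2 and 2 libraries, so a lack of overlap alone says little. The log2 fold change of Ighg1 came to 10.46 (SE 0.81, limma adjusted p = 0.00590). Ighg1 spans 113325240 to 113330523 of chromosome 12 in mm10, minus strand. In bulk tissue, more cells of a type and more RNA per cell cannot be told apart. Ighg2b, Ighg2c and Ighg3 rose by 8.14, 8.52 and 7.57, with both Acu libraries above both saline libraries for each. The reference annotation is of another strain and the gamma genes are near copies of each other. Which gamma gene of these mice the reads listed under Ighg2b and Ighg2c come from is therefore uncertain. These 4 were the genes called higher of 12 immunoglobulin constant genes tested, none was called lower, and the list median was 3.99 against 0.06 for all genes.

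IgM, IgD, IgA and the kappa chain did not pass. Ighm, the IgM constant region, was 22.5 and 467 FPKM in Control 15 and 16 and 1459 and 1306 FPKM in Acu 6 and 28 (log2 fold change 3.72, limma adjusted p = 0.129, and 1.56 without Control 15). Ighd, the IgD constant region of resting B cells, was 1.82 and 573 FPKM in Control 15 and 16 and 402 and 639 FPKM in Acu 6 and 28, so the groups overlapped. Its log2 fold change of 3.66 became -0.18 without Control 15. Igkc, the kappa light chain constant region, was 63.2 and 2203 FPKM in the saline libraries and 27030 and 22689 FPKM in Acu (6.04, limma adjusted p = 0.0941, and 3.49 without Control 15). Igha, of IgA, stood at 3.53, and neither it nor Ighe, of IgE, passed. Immunoglobulin genes, 429 in all, took 0.0326% and 1.11% of summed FPKM in Control 15 and 16 and 20.8% and 13.4% in Acu 6 and 28. In the libraries labelled Control 17 and Acu 4 they took 0.0201% and 0.369%.

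Among plasma cell genes, 8 of 15 tested were called higher and 0 lower, with a list median of 2.17. Jchain, which links IgM and IgA units for secretion, was 4.47 and 5.32 FPKM in Control 15 and 16 and 1539 and 584 FPKM in Acu 6 and 28. It rose by 7.33 (SE 0.61, limma adjusted p = 0.00590), and by 7.23 with Control 16 as the only saline library. Jchain spans 88519809 to 88527891 of chromosome 5 in mm10, minus strand. Mzb1, a chaperone of antibody assembly, rose by 5.90 and by 3.40 without Control 15, since it was 0.605 FPKM there and 50.5 FPKM in Control 16. Bhlha15 and Irf4, transcription factors of secretory and plasma cells, rose by 3.07 and 2.15. Eaf2, a further member of the list, also rose by 3.07, and Slamf7, a surface receptor of plasma cells, by 2.62. Derl3 and Creld2, proteins of the endoplasmic reticulum, rose by 3.55 and 2.50.

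Xbp1 and Prdm1, the master regulators of this fate, did not pass. Xbp1 was 90.8 and 30.2 FPKM in the saline libraries and 189 and 73.4 FPKM in Acu 6 and 28, with overlap (1.15, SE 0.85, and 1.93 without Control 15). Prdm1 was below 1 FPKM in both saline libraries and 6.86 and 2.38 FPKM in Acu (1.57, limma adjusted p = 0.148). Of 16 genes of the unfolded protein response, which secretory load engages, 1 was called higher. This was Sdf2l1, a chaperone partner, at 5.12 and 10.2 FPKM in Control 15 and 16 and 100.02 and 62.2 FPKM in Acu 6 and 28 (3.27, SE 0.44, limma adjusted p = 0.0157). Hspa5, the main chaperone of the endoplasmic reticulum, was 81.2 and 70.0 FPKM in saline and 224 and 137 FPKM in Acu, and did not pass (1.21). Manf, a factor released under such stress, stood at 1.63 (limma adjusted p = 0.0756). Along with these genes the B cell list stood at 0.77 and 5.79 in the saline libraries and 6.02 and 6.25 in Acu, and its part in the antibody results was not tested.

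Derl3 and Creld2 are shown because their start regions carry the ER stress element, a site bound by factors of the unfolded protein response. It was searched as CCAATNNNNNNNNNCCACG on both strands of RefSeq windows of 300 bases (250 before to 50 after a gene's start, GRCm38.p6). Of 32851 windows 0.1187% held it, 39 in all. It was in 2 of the 6 matched windows of plasma cell genes called higher and in 5 of the 13 of unfolded protein response genes not called. Each CCAAT within it is also a CCAAT box. The sequences run 5′ to 3′ from 250 bases before to 20 after the start (Derl3, chr10:75893148-75893417, plus strand; Creld2, chr15:88819396-88819665, plus strand), and capitals mark the fixed letters of the element, here on the opposite strand.
Derl3: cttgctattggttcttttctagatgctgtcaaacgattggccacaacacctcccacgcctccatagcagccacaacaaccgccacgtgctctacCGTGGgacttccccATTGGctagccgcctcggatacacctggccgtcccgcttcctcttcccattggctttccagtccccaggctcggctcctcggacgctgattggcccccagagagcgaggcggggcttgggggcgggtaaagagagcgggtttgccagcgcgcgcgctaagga
Creld2: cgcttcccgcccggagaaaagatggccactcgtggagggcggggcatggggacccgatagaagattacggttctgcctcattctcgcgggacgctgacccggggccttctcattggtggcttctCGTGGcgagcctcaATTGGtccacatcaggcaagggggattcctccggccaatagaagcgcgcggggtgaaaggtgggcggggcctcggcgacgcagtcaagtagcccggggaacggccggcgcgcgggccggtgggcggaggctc

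Many genes of cell division rose. Of 23 genes of G2 phase and mitosis tested, 11 were called higher and 0 lower, with a median of 2.09 that was 1.89 without Control 15. Mki67, the Ki-67 protein of cycling cells, was 1.85 and 5.96 FPKM in Control 15 and 16 and 42.6 and 26.9 FPKM in Acu 6 and 28, with no overlap. It rose by 2.97 (SE 0.51, limma adjusted p = 0.0226). Ccnb2, a cyclin that drives entry into mitosis, was 2.50 and 2.62 FPKM in saline and 21.004 and 14.7 FPKM in Acu. Its saline values lay close together, and its rise of 2.38 (SE 0.33) was 2.36 without Control 15. Top2a, which untangles DNA before chromosomes part, rose by 2.79, and Cdc20, which activates the anaphase ligase, by 3.06. The mitotic kinases Aurkb and Plk1 rose by 2.40 and 2.17.

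Of 25 S phase genes 4 were called higher and 0 lower. Mcm3 and Mcm6, subunits of the replicative helicase, rose by 2.06 and 2.55. Rrm2, which makes deoxynucleotides, rose by 3.17, from 2.37 and 1.61 FPKM in Control 15 and 16 to 42.8 and 15.4 FPKM in Acu 6 and 28. Rrm2 reached 1421 and 292 FPKM in the libraries labelled Control 17 and Acu 4, above every other library. Uhrf1, which copies DNA methylation at replication forks, rose by 2.47. Adipocyte genes, from tissue that divides little, averaged 9.90 and 7.91 in the saline libraries and 3.71 and 4.03 in Acu, and their part in these rises was not tested.

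Ccnb2 and Top2a are shown because their start regions hold CCAAT boxes with cell cycle homology elements, the pairing known from many mitotic promoters. The searched letters were CCAAT, and TTTGAA or TTCGAA, on both strands. A CCAAT box was in 37.41% of all 32851 windows, a cell cycle homology element in 19.23% and both in 7.525%. Both were in 6 of the 7 matched windows of G2 and mitosis genes called higher and in 6 of the 10 of those not called. Of the 4 S phase genes called higher, 4 held a CCAAT box and 0 the element. Capitals mark both motifs (Ccnb2, chr9:70421535-70421804, minus strand; Top2a, chr11:99024170-99024439, minus strand), with the same limits as above. A match describes letters, not a site in use.
Ccnb2: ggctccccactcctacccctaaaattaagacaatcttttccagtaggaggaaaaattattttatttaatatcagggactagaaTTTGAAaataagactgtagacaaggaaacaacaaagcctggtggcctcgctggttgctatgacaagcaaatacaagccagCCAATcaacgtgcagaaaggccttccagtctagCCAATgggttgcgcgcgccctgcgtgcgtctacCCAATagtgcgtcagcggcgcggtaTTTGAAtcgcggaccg
Top2a: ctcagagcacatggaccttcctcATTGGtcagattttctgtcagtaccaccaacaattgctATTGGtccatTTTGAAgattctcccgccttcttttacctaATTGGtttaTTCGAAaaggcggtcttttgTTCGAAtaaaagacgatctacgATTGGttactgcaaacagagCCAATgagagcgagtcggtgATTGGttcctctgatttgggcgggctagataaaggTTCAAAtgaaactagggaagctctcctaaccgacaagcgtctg

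**Figure D4:**
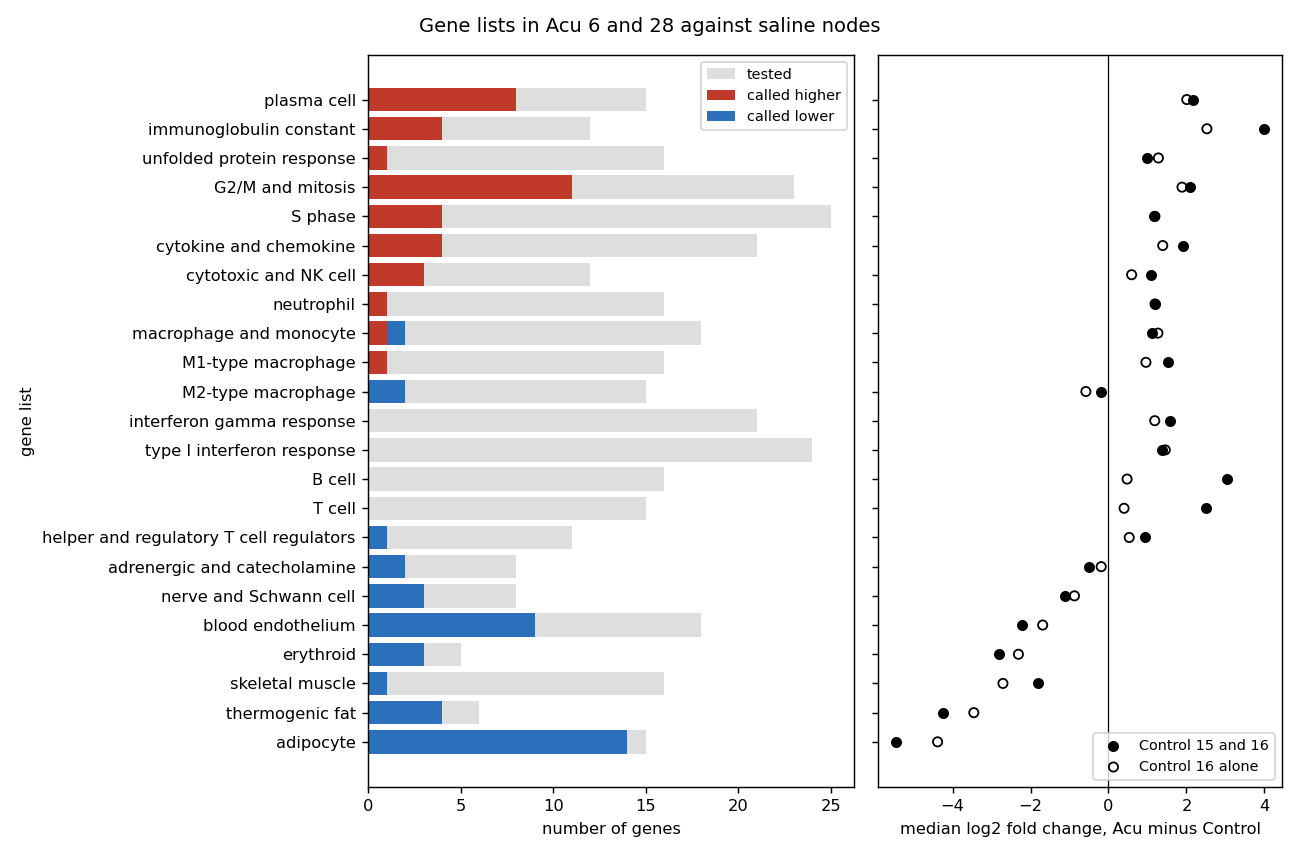
Left, number of genes tested in each list (grey) and called higher (red) or lower (blue) in Acu 6 and 28 against Control 15 and 16. Right, the list's median log2 fold change with both saline libraries (filled) and with Control 16 alone (open); the B cell median falls from 3.05 to 0.48 and the adipocyte median goes from -5.45 to -4.39.

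Inflammatory genes rose in part. Slpi, an inhibitor of neutrophil proteases that macrophages also make, was 0.103 and 1.54 FPKM in Control 15 and 16 and 546 and 451 FPKM in Acu 6 and 28. It rose by 8.21 (SE 0.64, limma adjusted p = 0.00590) and spans 164354070 to 164389095 of chromosome 2 in mm10, minus strand. The libraries labelled Control 17 and Acu 4 held 37.1 and 81.7 FPKM. Slpi was the gene called of 16 neutrophil genes. S100a8 and S100a9, the calprotectin pair that fills neutrophils, did not pass. S100a9 was 2.45 and 0.496 FPKM in saline and 20.2 and 75.0 FPKM in Acu (4.14, SE 1.01, limma adjusted p = 0.0589), and S100a8 stood at 3.47 (limma adjusted p = 0.146).

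Of 21 cytokine and chemokine genes 4 were called higher and 0 lower, with a median of 1.92. Il1b, the inflammatory interleukin, was 0.0638 and 0.611 FPKM in Control 15 and 16 and 8.64 and 9.25 FPKM in Acu 6 and 28, a rise of 2.92 (SE 0.55, limma adjusted p = 0.0290). Il1rn, which blocks the receptor of Il1b, rose by 2.83 (SE 0.35, limma adjusted p = 0.0157), from 0.637 and 0.129 FPKM to 7.18 and 10.4 FPKM. The cytokine and the antagonist of its receptor thus both rose. Ccl2 and Ccl7, neighbouring chemokines that draw monocytes, rose by 3.58 and 3.42. Ccl2 was 0.748 and 1.02 FPKM in saline and 20.0 and 23.03 FPKM in Acu. Ccl19-ps3, a copy of the T zone chemokine Ccl19, rose by 4.78, from 0 and 12.6 FPKM to 114 and 87.3 FPKM, and by 2.89 without Control 15. Its reads may be shared with near-identical copies.

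Clec4n, the receptor Dectin-2 for microbial mannans, rose by 3.90. It was 0.600 and 7.38 FPKM in Control 15 and 16 and 52.2 and 55.5 FPKM in Acu 6 and 28, and its value was 2.71 without Control 15. Serpina3g, a protease inhibitor of activated leukocytes, rose by 4.29 and by 2.97 without Control 15. Plac8, a small protein of myeloid and activated lymphoid cells, rose by 3.89, but reached 729 and 231 FPKM in the libraries labelled Control 17 and Acu 4. Arg2, the mitochondrial arginase, rose by 2.04. Of 12 cytotoxic and NK cell genes 3 were called higher. Gzmb and Prf1, the granule protease and pore protein of killer cells, rose by 2.57 and 2.03, and Cst7, a granule protease inhibitor, by 3.66. Prf1 was 529 and 228 FPKM in the libraries labelled Control 17 and Acu 4 and at most 15.2 FPKM in the others. Gzmb was 496 and 122 FPKM in that pair, against 15.1 and 17.7 FPKM in Acu 6 and 28. Cst7 was 68.8 and 25.9 FPKM in the pair, against 30.8 and 23.3 FPKM in Acu 6 and 28.

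Macrophage genes moved unevenly. Cd5l, a secreted protein of tissue macrophages, was 0.0299 and 0.0636 FPKM in Control 15 and 16 and 25.4 and 23.03 FPKM in Acu 6 and 28. The saline values rest on 3 reads in all against 1988 in Acu, a ratio of 524 with an exact 95% interval of 179 to 2542 that covers counting error only. Cd5l was called higher (limma adjusted p = 0.0341). Cd163, a hemoglobin scavenger receptor, fell from 5.02 and 3.74 FPKM to 0.253 and 0.420 FPKM (limma adjusted p = 0.0166). These were the genes called of 18 on the macrophage and monocyte list, whose median was 1.13.

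For polarization, the M1-type list, of genes tied to interferon gamma and microbial products, had 1 of 16 called higher (Il1b) and a median of 1.52. The M2-type list, of genes tied to interleukin 4, had 0 of 15 higher and 2 lower, with a median of -0.19. Retnla, a secreted protein of the M2-type state, was 83.7 and 54.1 FPKM in Control 15 and 16 and 0.330 and 1.25 FPKM in Acu 6 and 28. It fell by 5.30 (SE 0.56, limma adjusted p = 0.0157), and spans 48842552 to 48844461 of chromosome 16 in mm10, plus strand. Mgl2, a lectin of the same state, fell by 2.80, from 11.8 and 7.51 FPKM to 0.448 and 0.547 FPKM. Fat also makes Retnla, and adipocyte genes were far higher in the same saline libraries, so the part of fat in these falls was not tested.

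The enzymes and receptors most used to tell the states apart did not pass. Nos2 was 3.54 and 2.39 FPKM in Control 15 and 16 and 4.48 and 5.42 FPKM in Acu 6 and 28 (0.60). Arg1 was below 1 FPKM in all 4 libraries (0.35), and Mrc1, the mannose receptor, stood at -1.27 (limma adjusted p = 0.118) and at -0.80 without Control 15. Tnf was 0.482 and 11.6 FPKM in saline and 6.77 and 15.6 FPKM in Acu, with overlap, and its 1.39 became -0.16 without Control 15. Il10, which restrains inflammation, stood at 1.58 (limma adjusted p = 0.0931). The values of these 5 genes give no call in either direction.

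Interferon gamma response genes had 0 of 21 called, although 19 had an unadjusted p under 0.05 and a positive fold, and the list median was 1.58. Over all genes tested in that fit, 1621 of 16067 had such a p and a positive fold. Iigp1, a GTPase that interferon gamma induces, stood at 1.73 (limma adjusted p = 0.0565). Type I interferon genes had 0 of 24 called and a median of 1.37, and Zbp1, a nucleic acid sensor, stood at 3.23 (limma adjusted p = 0.0646) and at 1.99 without Control 15. Of 10 genes of MHC class II presentation 1 was called higher, Ctss, the protease that trims the invariant chain. Ctss was 75.2 and 84.2 FPKM in Control 15 and 16 and 333 and 540 FPKM in Acu 6 and 28, a rise of 2.40.

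Lineage genes of lymphocytes differed between the 2 saline libraries, and none was called. Cd79a, the signalling chain of the B cell receptor, was 2.09 FPKM in Control 15 and 307 FPKM in Control 16, against 320 and 475 FPKM in Acu 6 and 28. Control 16 thus lay next to the Acu libraries. Its log2 fold change of 3.66 (limma adjusted p = 0.248) was 0.35 without Control 15. B cell genes had 0 of 16 called and T cell genes 0 of 15, with medians of 3.05 and 2.51 that became 0.48 and 0.40 without Control 15. Cd3e, of the T cell receptor complex, went from 2.25 to 0.27.

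Of 11 helper and regulatory T cell regulators 0 were called higher. Tbx21, the Th1 regulator, was 1.05 and 2.63 FPKM in saline and 7.97 and 7.97 FPKM in Acu (1.72, limma adjusted p = 0.125). Gata3 of Th2 cells and Foxp3 of regulatory T cells stood at 0.73 and 1.72 and at 0.10 and 0.48 without Control 15. Ifng, the Th1 cytokine, stood at 0.72.

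Sympathetic nerves act on nodes through noradrenaline, which binds adrenergic receptors. Of 8 adrenergic and catecholamine genes tested 0 were called higher and 2 lower. Adrb3, the beta-3 receptor of fat cells, was 212 and 71.0 FPKM in saline and 1.46 and 2.43 FPKM in Acu, a fall of 5.41 (SE 0.66, limma adjusted p = 0.0157). Maob, which breaks down amines, fell by 2.69. Th, the enzyme that begins noradrenaline synthesis, was too low to test.

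Nerve and Schwann cell genes had 3 of 8 called lower and 0 higher. Pmp22, a myelin protein also made outside nerve, fell by 3.73, a value of -2.80 without Control 15. The adipocyte list again stood at 9.90 and 7.91 in saline against 3.71 and 4.03 in Acu, and its part in these falls was not tested.

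Genes of fat were among the largest falls. Adipocyte genes had 14 of 15 called lower and 0 higher, with a median of -5.45 that was -4.39 without Control 15. Adipoq, the hormone adiponectin, was 1294 and 336 FPKM in Control 15 and 16 and 9.39 and 13.9 FPKM in Acu 6 and 28. It fell by 5.73 (SE 0.93, limma adjusted p = 0.0200), and spans 23146536 to 23158028 of chromosome 16 in mm10, plus strand. Adipoq was listed at 0 in the libraries labelled Control 17 and Acu 4. Cfd, the complement protease adipsin of fat, fell by 5.75, from 10449 and 4343 FPKM to 89.9 and 170.9 FPKM. Car3, a carbonic anhydrase of fat and muscle, fell by 6.04, and the fat hormone Retn by 5.76.

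Cyp2e1 and Pck1, metabolic enzymes also made in fat, fell by 5.87 and 5.72. Nnat and Sncg, known from neurons and from fat, fell by 6.01 and 5.82. Ucp1, the uncoupling protein of brown and beige fat, was 199 and 27.4 FPKM in saline and 1.84 and 1.83 FPKM in Acu, and fell by 4.73, a value of -3.32 without Control 15. Of 6 thermogenic fat genes tested 4 were called lower. Of 16 skeletal muscle genes 1 was called lower, Myh7, the slow myosin, which was too low to test without Control 15. The fold changes of all 16 were below 0, with a median of -1.81 that was -2.71 without Control 15. Ckm, the muscle creatine kinase, was 180 and 513 FPKM in Control 15 and 16 and 89.3 and 146 FPKM in Acu 6 and 28 (-1.41, limma adjusted p = 0.683, and -2.16 without Control 15). The muscle list averaged 6.16 and 7.85 in saline and 4.68 and 5.78 in Acu.

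Vessel genes fell in part. Of 18 blood endothelium genes 9 were called lower and 0 higher, with a median of -2.22. Robo4, a guidance receptor of endothelium, was 26.3 and 16.6 FPKM in Control 15 and 16 and 2.49 and 2.70 FPKM in Acu 6 and 28, a fall of 2.61 (SE 0.32, limma adjusted p = 0.0157). Tek, the angiopoietin receptor, fell by 2.53, and Gpihbp1, which anchors lipoprotein lipase on capillaries of fat and muscle, by 4.11. Vegfa, the growth factor, fell by 2.66. Of 5 erythroid genes 3 were called lower, such as Hbb-bs and Hba-a1, adult globins, at -2.81 and -2.90. Lyve1, a receptor of lymphatic vessels, rose from 2.48 and 3.77 FPKM to 17.03 and 13.7 FPKM, the 1 gene called of 11 on the lymphatic and high endothelium list.

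Of 16 fibroblast and stroma genes 1 was called higher and 2 lower, with a median of 0.12. Bst1, a marker of node stroma, rose by 2.05. Lum, a collagen-binding matrix protein, fell by 2.50, a value of -1.55 without Control 15, and Pi16, a marker of adventitial fibroblasts, fell by 2.16 (limma adjusted p = 0.0214). Of 13 mitochondrially encoded genes 1 was called lower, mt-Nd3, a subunit of complex I (-2.54). The mitochondrial share of summed FPKM was 24.5% and 34.2% in Control 15 and 16 and 3.71% and 7.96% in Acu 6 and 28. Ribosomal protein genes had 0 of 26 called, with a median of 1.20. The fat and muscle lists were also higher in Control 15 and 16 than in Acu 6 and 28. In the libraries labelled Control 17 and Acu 4, blood endothelium genes averaged 5.61 and 4.69, and adipocyte genes 1.46 and 1.78. The part of fat and muscle in the falls of vessel, globin and mitochondrial genes was not tested.

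**Figure D5:**
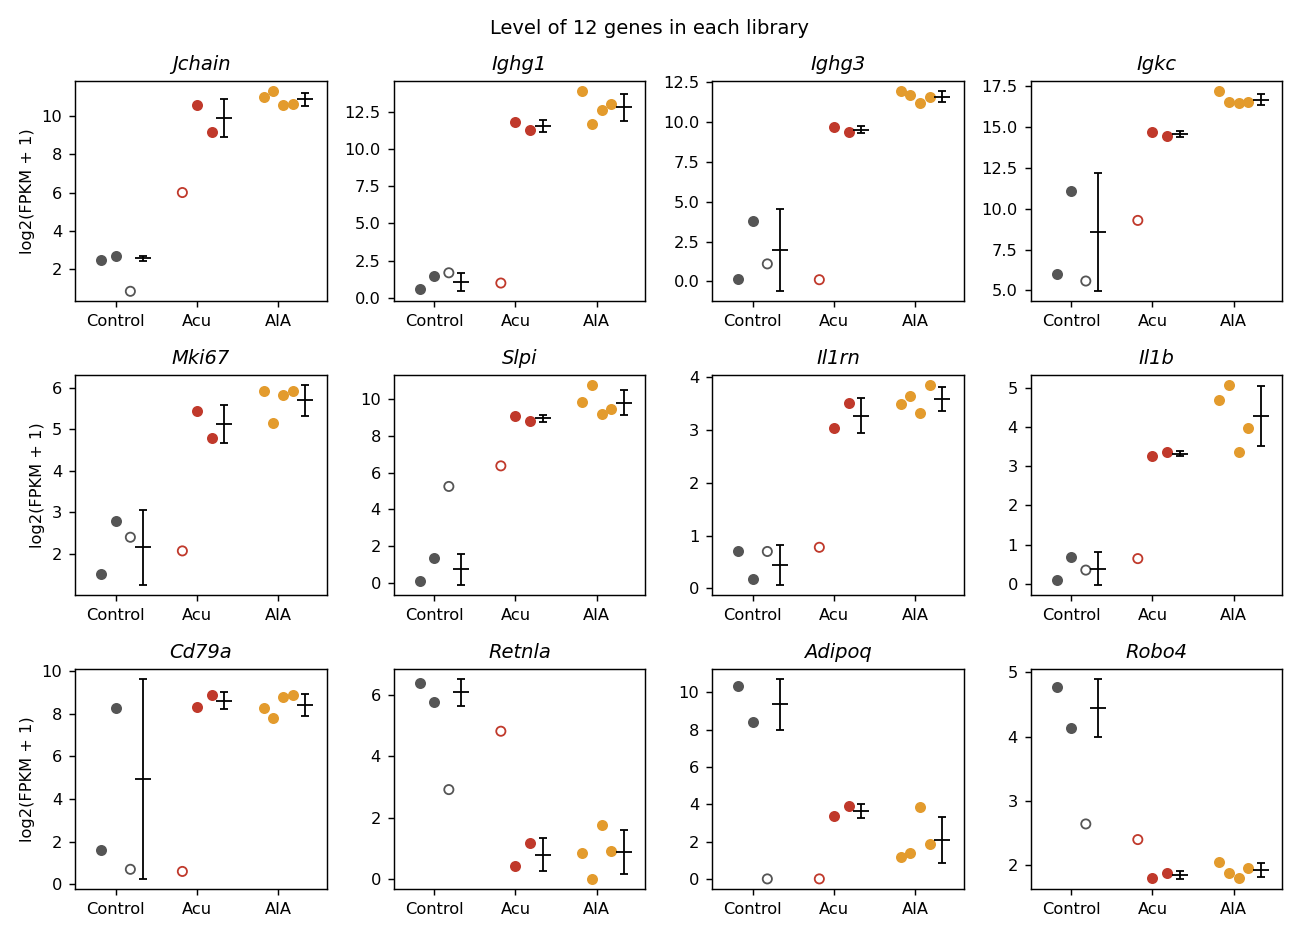
Level of 12 genes, log2(FPKM + 1), in each library by group; filled points are the 8 libraries with low Prl8a2, open points the libraries labelled Control 17 and Acu 4, and the bar with whiskers is the mean with SD of the filled points. Jchain lies below 3 in Control 15 and 16 and above 9 in Acu 6 and 28, while Cd79a in Control 16 lies beside the Acu libraries.

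With all 6 libraries of the comparison kept, the same genes spread widely within groups. Ighg1 was 0.994 and 2.21 FPKM in the libraries labelled Acu 4 and Control 17, so its log2 fold change came to 6.75 (SE 2.30, limma adjusted p = 0.638). Slpi stood at 5.85 (limma adjusted p = 0.398), Mki67 at 1.87 and Retnla at -2.90. Adipoq stood at -3.82 (limma adjusted p = 0.719), with the library labelled Control 17 listed at 0 beside 1294 FPKM in Control 15. Jchain was 63.2 and 0.776 FPKM in the libraries labelled Acu 4 and Control 17, so the 3 Acu libraries stayed above the 3 Control libraries. Its value was 6.61 (limma adjusted p = 0.205). Over all genes 9.15% showed no overlap between the 3 and 3 libraries, against 61.0% between 2 and 2.

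Of the 8 genes with the smallest p in that fit, Mir6976, a microRNA gene, rested on 2, 2 and 3 reads in Acu 4, 6 and 28 and on 0 in every other library (limma adjusted p = 0.129), too few for a fold. Olfm2, a secreted olfactomedin, was 7.56, 2.89 and 4.42 FPKM in Control 15, 16 and 17 and 0.259, 0.0185 and 0.150 FPKM in Acu 4, 6 and 28 (-2.31, limma adjusted p = 0.129). G0s2, which blocks fat breakdown, was 156, 64.0 and 38.1 FPKM in Control and 4.90, 4.47 and 7.44 FPKM in Acu (-3.51, limma adjusted p = 0.145). For both genes the 3 Control libraries lay above the 3 Acu libraries. Bhlha15, Arg2 and Ccl2 stood at 2.55, 2.28 and 2.79, Gpihbp1 at -3.50, and Jchain as given above. None of the 8 passed.

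Levels in AIA, the group with adjuvant alone, are set beside those of Acu, and both comparisons with saline share the Control libraries. Over 16067 genes 0 were called between Acu and AIA without the libraries with high Prl8a2 (limma, 0% higher and 0% lower, 479 genes at an unadjusted p under 0.05, of which 323 were higher and 156 lower in Acu), and voom also called 0. Jchain was 1534 to 2557 FPKM in the 4 AIA libraries, and Acu minus AIA was -0.99 (SE 0.53, limma adjusted p = 0.984). Ighg1 was 3170 to 14991 FPKM in AIA (-1.25), Ighg2b 1209 to 2800.3 FPKM (-0.99) and Ighg3 2304 to 3963 FPKM, above both Acu libraries (-2.08, SE 0.89, limma adjusted p = 0.984). Igkc was 90825 to 151190 FPKM in AIA, again above both Acu libraries (-2.09, SE 1.53). Immunoglobulin genes took 16.2% to 39.7% of summed FPKM in AIA, a range that holds Acu 6 at 20.8% and lies above Acu 28 at 13.4%.

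Slpi was 587 to 1745 FPKM in AIA and S100a9 44.1 to 350 FPKM, with Acu minus AIA of -0.85 and -2.08. Il1b and Il1rn were 9.27 to 32.8 and 8.99 to 13.4 FPKM (-0.96 and -0.31), and Manf was 86.0 to 172 FPKM (-1.08). Eaf2 was 18.5 to 40.1 FPKM (-1.04) and Mki67 34.4 to 59.5 FPKM (-0.58). Among division genes tested, 6 of 23 of G2 and mitosis and 13 of 25 of S phase were above 0 in Acu minus AIA. Their list medians were -0.20 and 0.02. Cd5l was 2.44 to 30.6 FPKM, with Acu 6 and 28 inside that range (1.19). Fat and muscle genes stood mostly above 0 in Acu minus AIA. Cidea, a lipid droplet protein of fat, was 0 to 2.85 FPKM in AIA and 3.69 and 5.82 FPKM in Acu 6 and 28 (1.68, SE 0.63, limma adjusted p = 0.984). Ckm was 0.164 to 93.6 FPKM in AIA, with Acu 6 inside that range and Acu 28 above it (3.32, SE 1.47, limma adjusted p = 0.984). Acu minus AIA was above 0 for 14 of 15 adipocyte and 15 of 16 muscle genes tested, with medians of 1.10 and 2.36 against 0.06 for all genes. None of these differences passed, which does not show that the 2 groups are alike, since 2 Acu libraries leave wide errors. The muscle list averaged 0.98 to 5.37 in AIA against 4.68 and 5.78 in Acu, and the adipocyte list 2.06 to 4.05 against 3.71 and 4.03.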

How the data were processed

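The labels' protocols state Trizol extraction of total RNA and the NEBNext Ultra kit. Per the submitters' processing notes, mm10 was the genome build, and the tools were DESeq2 1.16.1, featureCounts 1.5.0-p3, StringTie 1.3.3b and HISAT2 2.0.5, with no role given. How strand was treated in counting is not given in these sources. Overlapping, antisense and near-identical genes are therefore uncertain. The authors deposited FPKM for 54987 genes with lengths and coordinates. Multiplied by gene length, 100% of values above 0 were whole multiples of 1 step per library (tolerance 0.01 step), which gave back the reads, 13269763 to 18926894 per library. A read was worth 0.0493 to 0.0882 FPKM for a gene of 1 kb, and the FPKM were already scaled between libraries.

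log2(FPKM + 1) was tested for genes that reached 0.5 FPKM in 3 or more libraries of a fit, by limma 3.58.1 in R 4.3.3 with a mean-variance trend. Each fit held all 3 groups, with Benjamini-Hochberg adjustment over all genes tested and a threshold of 0.05. The fit was also run on simulated reads, with 1 spread setting for all genes and, depth aside, equal means within a group. That run cannot speak for the wide differences seen between the saline libraries, and nothing is drawn from it. The 38 gene lists are described by counts and medians. Members and lists were chosen with earlier results of these data known. Named genes are the 12 largest rises and 12 largest falls called without the libraries with high Prl8a2 (1 FPKM or more on average in the group with more, no overlap, no immunoglobulin or T cell receptor variable segments, predicted or unnamed genes), and the 8 smallest p with all libraries. Added are the leading 3 members and the 3 smallest p of each list, and all members of the constant region, polarization, T cell regulator and adrenergic lists. Some genes these rules name are not reported here, though list counts include them. Of list symbols 2 matched no name. Alternatives changed the pseudocount, filter, scaling, weights, trend, groups, method or 1 library. Scaling to recovered reads was chosen after seeing the data. Promoters are RefSeq windows of GRCm38.p6, used within 500 bases of the gene start in the deposited table. Python 3.11.15, numpy 2.4.6, pandas 2.3.3 and matplotlib 3.10.9 read and drew the data.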

Additional observations from a re-analysis of the deposited data

Results flagged for a closer look

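Among 15 genes whose AIA values are given, 2 had an AIA library far from the other 3 by Dixon's test, which chance gives in about 1 of 20 groups. Igkc was 151190 FPKM in AIA 5, against 90825 to 96078 FPKM in the other 3. Mki67 was 34.4 FPKM in AIA 10, below the other 3. Groups of 3 libraries were not tested this way.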

How the results depend on the processing

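No paired analysis was possible because the groups share no replicate number. With all libraries the count of 0 became 1 with no filter on low values and 2067 with array weights, and lay between 0 and 303 with 1 library left out. Without the libraries with high Prl8a2 the 698 became 222 with a pseudocount of 0.1, 345 with voom and 13 with only the 2 groups compared (11 higher and 2 lower), and lay between 0 and 2096 with 1 library left out. It was 2039 without Control 16, 2096 without AIA 10, and 265, 326 and 308 without AIA 5, 31 and 38. Acu minus AIA had 70 calls with no filter, 17 with array weights and 1 with scaling to recovered reads, and 0 to 0 with 1 library left out. Of the single-gene values 5 reversed. The 2 without the libraries with high Prl8a2, of Ighd and Tnf, had not been called. The 3 with all libraries were of Prf1, in a fit that called 0 genes. Prf1 had been called higher without the libraries with high Prl8a2. Without the libraries with high Prl8a2 and with 1 further library left out, Ighd ran from -0.18 (without Control 15) to 7.49, and Tnf from -0.16 (without Control 15) to 2.94. With all libraries and 1 left out, Prf1 ran from -0.51 (without the library labelled Acu 4; -0.48 without Control 15 and -0.16 without Control 16) to 3.49. Of the other values without the libraries with high Prl8a2, 452 kept their direction but not their call, 26 gained a call and 1087 kept both. The causes were not tested. Depth limits genes with few reads: the saline reads of Cd5l, 3 in all, leave an interval of 179 to 2542 on its ratio.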
